A study of Mus musculus with 9 samples.

Results

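Oxidative phosphorylation (OXPHOS) was examined in mouse liver through the 81 nuclear genes whose symbols name subunits of respiratory complexes I to V, of 19329 gene symbols in the deposited tables. The members were taken by symbol alone, as Nduf genes with the letters a, b, c, s or v and a number, Sdha to Sdhd, and symbols that begin with Uqcr, with Cox and a digit between 4 and 8, or with Atp5. They fell into 35 genes of complex I, 4 of complex II, 8 of complex III, 18 of complex IV and 16 of complex V. Ndufa4 was counted with complex IV, where its protein is found, and Cox7a2l, whose protein joins complexes III and IV into supercomplexes, was kept with complex IV by its name. The livers came from 4 C57BL/6J mice fed a high-sucrose diet (HSD) and 5 C57BL/6J mice kept on standard chow (Chow). C57BL/6J is an inbred strain that carries a deletion in Nnt, the mitochondrial transhydrogenase gene, and a shortened allele of Cox7a2l, and both diets share this background. All mice had chow until 8 weeks of age, the HSD then ran for 3 weeks, and livers were collected at 11 weeks. Each library was made from 1 animal. The sources used here do not state the sex of the animals.

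Complexes I to IV pass electrons from NADH and succinate to oxygen, and complexes I, III and IV pump protons across the inner mitochondrial membrane as they do so. Complex V, the ATP synthase, lets the protons flow back and makes ATP. Every complex except complex II also holds subunits encoded by mitochondrial DNA (mtDNA), so that both genomes supply its parts, and in hepatocytes the pathway meets the energy demand of gluconeogenesis, urea synthesis and lipid handling.

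Estimated counts summed to 14040723 to 24825322 in HSD livers and to 12769668 to 25913869 in Chow livers. Counts scaled to a common library size with TMM factors (CPM) were compared between diets with the quasi-likelihood test of edgeR, and TPM values, in which counts are corrected for transcript length and library size, were used to compare levels between genes. A gene was called where its adjusted p (Benjamini-Hochberg over all 12091 genes tested) was under 0.05. The defining markers of hepatocytes were abundant in all livers, at a summed 88876 to 113129 TPM in HSD livers and 54500 to 108343 TPM in Chow livers over 10 genes. All 12 markers of Kupffer cells and macrophages had negative log2 fold changes (median -0.54, 0 called). Of these, 6 (50%) had an unadjusted p under 0.05, beside 23.7% of all genes. Their summed TPM was 161 to 321 in HSD livers and 250.04 to 455 in Chow livers. Markers of cholangiocytes were positive in all 6 tested (median 0.40, 0 called), and those of stellate cells in 6 of 9 (median 0.27, 0 called). At an unadjusted p under 0.05, 2 cholangiocyte markers (33.3%) and 3 stellate markers (33.3%) were listed, all higher. Endothelial markers had a median of -0.01 (0 of 9 called, 1 with an unadjusted p under 0.05). All 5 red blood cell markers tested were negative (median -0.53), and Alas2 was called lower (-1.14). The red blood cell sum was 217 to 384 TPM in HSD livers and 231 to 1040 TPM in Chow livers, highest in Chow replicate 2. The part of these cell types in the subunit values was not tested.

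None of the 76 subunit genes tested passed the test on HSD, whereas 6.67% of all genes did (416 higher and 391 lower). Over all genes the split was 569 higher and 254 lower with library totals, and 475 higher and 101 lower with limma on log2(TPM + 1). DESeq2 and limma voom also called 0 members. At an unadjusted p under 0.05, edgeR listed 8 members (1 higher, Sdhd, and 7 lower), or 10.5% of those tested, beside 23.7% of all genes. DESeq2 listed 12 of the 79 members it tested, beside 17.8% of all genes. Limma voom listed 9 of 76, beside 23.9% of all genes. The median log2 fold change of the members was -0.05, beside -0.004 over all genes tested, and 54 of the 76 fold changes were negative. The values ran between -0.43 for Atp5g2, a gene of the c subunit of ATP synthase, and 0.72 for Cox7a1, the muscle form of a complex IV subunit, both among the least abundant members. In bulk liver, a shift in the share of hepatocytes and a shift in subunit RNA per hepatocyte cannot be told apart.

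**Figure D1:**
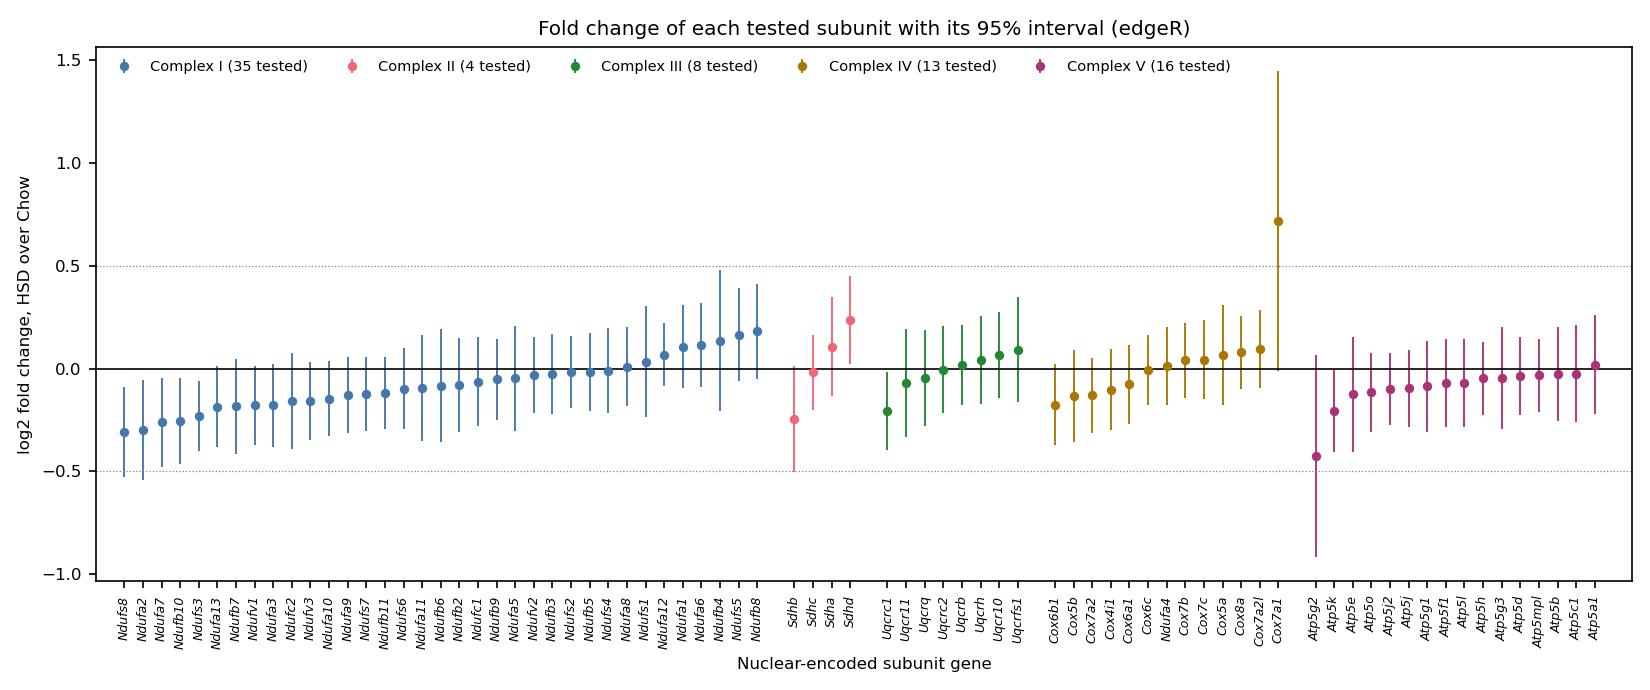
Fitted log2 fold changes (HSD over Chow, y axis) of the 76 tested subunit genes (x axis), grouped by complex and ordered by value, with points for the edgeR estimate and bars for its 95% interval. Of the 76 intervals, 71 lie between the dotted lines at -0.5 and 0.5, and Cox7a1 and Atp5g2 have the widest.

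The median SE of the log2 fold change was 0.09 over the members and 0.14 over all genes tested. Whether an interval lies near 0 depends on the estimate as well as on its SE, and these intervals hold for TMM-scaled CPM. The 95% interval of the log2 fold change lay within 0.5 of 0, a 1.41-fold difference, in 71 of 76 members (93.4%) and in 46.1% of all genes tested. It lay within 0.3, a 1.23-fold difference, in 35 members (46.1%) and in 13.3% of all genes. The 5 members whose interval reached beyond 0.5 were Atp5g2, Cox7a1, Ndufa2, Ndufs8 and Sdhb. The SD of log2 CPM between livers of 1 diet had a median of 0.13 over the members and 0.22 over all genes.

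The remaining 5 members did not reach the count filter. All are isoforms of complex IV subunits that belong to other tissues. Cox7b2, the testis form of Cox7b, and Cox8b, the muscle form of Cox8a, were listed at 0 in all 9 livers. Cox6b2, the testis form of Cox6b1, had estimated counts of 6, 12, 6 and 2 in HSD livers and 0, 0, 4, 0 and 0 in Chow livers. Cox4i2, the lung form of Cox4i1, had 0 counts in every HSD liver and 4, 0, 2, 0 and 0 in Chow livers. Cox6a2, the muscle form of Cox6a1, had 0, 0, 2 and 2 counts in HSD livers and 0, 0, 2, 0 and 2 in Chow livers. These counts are at or near the floor of these libraries and are given without a fold change.

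Levels per transcript length placed the subunits among the most abundant RNAs of the liver. The 81 genes summed to 20779, 22172, 20767 and 21190 TPM in HSD livers, against 16531, 21511, 18112, 20006 and 20985 TPM in Chow livers. Chow replicates 1 and 3 had the lowest sums, and Chow replicate 2 stood above 3 of the 4 HSD livers, so the diets overlapped. Complex V held 28.4% of the mean HSD sum (28.9% in Chow), complex IV 28.0% (27.7%), complex I 24.9% (25.3%), complex III 15.1% (14.6%) and complex II 3.68% (3.57%). The mean level per tested gene was 151 ± 3.32 TPM in HSD livers and 141 ± 14.4 TPM in Chow livers for complex I, and 457 ± 18.9 TPM in HSD livers and 413 ± 39.1 TPM in Chow livers for complex IV (SD, n = 4 HSD and n = 5 Chow). The coefficient of variation of a member's TPM had a median of 5.39% in HSD livers and 13.5% in Chow livers. Chow replicate 1 stood apart: the chi-square per degree of freedom of the count differences was 130.0 to 264 between it and the other Chow livers, 21.6 to 107 among those 4, and 15.2 to 41.4 among HSD livers. Without it, a comparison added after the values were seen, the Chow median was 10.2% and the median log2 fold change of the members was -0.07.

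**Figure D2:**
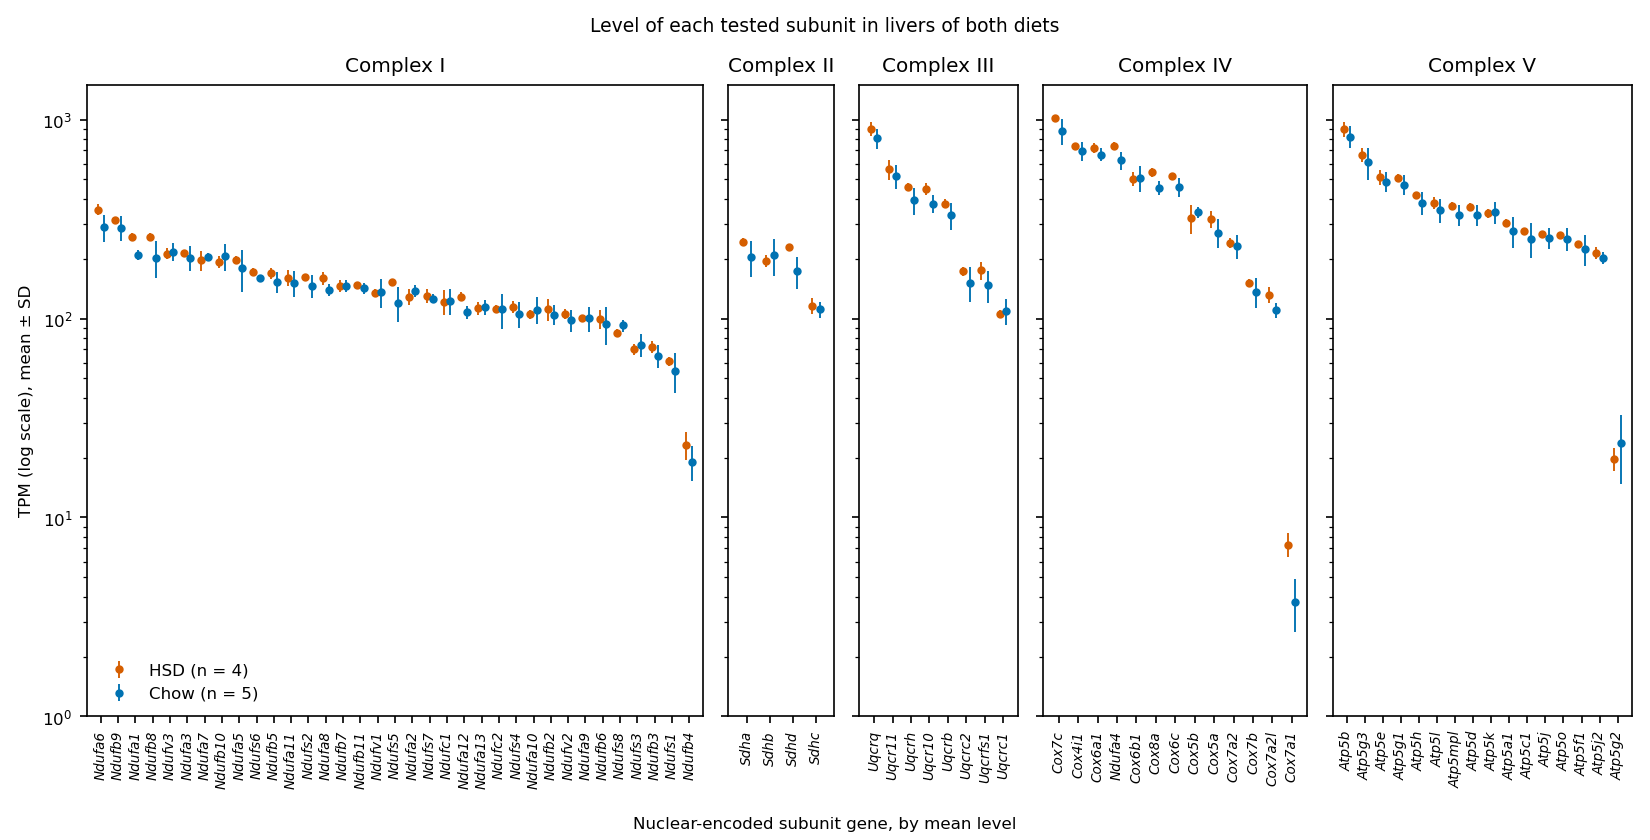
Mean TPM (log scale, y axis) with SD of each tested subunit gene in 4 HSD (orange) and 5 Chow (blue) livers, by complex and in order of level on the x axis. Complex II genes lie within 1.94-fold of each other, whereas complex IV spans 175-fold because of Cox7a1.

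The most abundant member of each complex is a structural or catalytic part found in all tissues. In complex I this was Ndufa6, an accessory subunit of the matrix arm, at 353 ± 23.5 TPM in HSD livers and 287 ± 45.5 TPM in Chow livers, and Ndufb4, of the membrane arm, was the lowest at 23.2 ± 3.81 and 19.1 ± 3.84 TPM in HSD and Chow livers (SD, n = 4 HSD and n = 5 Chow here and below). In complex II, Sdha, the flavoprotein that oxidizes succinate, was the highest and Sdhc, a membrane anchor, the lowest. In complex III, Uqcrq, a small accessory subunit, reached 894 ± 72.1 TPM in HSD livers and 804 ± 92.1 TPM in Chow livers, and Uqcrc1, a core protein, was the lowest at 106 ± 4.78 and 109 ± 16.0 TPM. Cox7c, a small subunit of complex IV, reached 1017 ± 38.4 TPM in HSD livers and 874 ± 129 TPM in Chow livers. In complex V, Atp5b, which encodes the catalytic beta subunit, was the highest at 894 ± 77.8 TPM in HSD livers and 821 ± 105 TPM in Chow livers. None of these genes was called.

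In complex I, 0 of 35 genes were called (5, or 14.3%, had an unadjusted p under 0.05, all lower, beside 23.7% of all genes) and the median log2 fold change was -0.08, with 27 of 35 values negative. The 7 core subunits, which carry the flavin, the iron-sulfur clusters and part of the quinone site, had a median of -0.12 (6 of 7 negative). The 28 accessory subunits had a median of -0.08 (21 of 28 negative). The lowest value belonged to Ndufs8, a core subunit that holds iron-sulfur clusters close to the quinone site. Ndufs8 had 43.7, 50.3, 46.6 and 48.9 CPM in HSD livers, against 70.1, 62.5, 54.8, 51.3 and 55.1 CPM in Chow livers. Every HSD liver was below every Chow liver in CPM, and the highest HSD liver and the lowest Chow liver were close. The log2 fold change was -0.31 (SE 0.10, edgeR adjusted p = 0.088), the lowest adjusted p of any member.

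Ndufs3, a core subunit next to Ndufs8 in the arm that reaches into the matrix, gave the other such pattern in complex I. It had 42.6, 40.02, 43.7 and 44.4 CPM in HSD livers and 45.7, 54.4, 47.7, 51.01 and 51.9 CPM in Chow livers, with no overlap. Ndufs3 overlapped between diets in TPM (64.0 to 73.3 in HSD livers, 59.4 to 83.6 in Chow livers). Its log2 fold change in CPM was -0.23 (SE 0.08, adjusted p = 0.099). Of its 31-base sequences, 25.4% also occur in other annotated genes, so part of its estimated count depends on how kallisto divided shared reads. Only 3 of the 76 members had diets fully apart in CPM (Ndufs8, Ndufs3 and Atp5k, all lower on HSD), a share below the 11.3% of all genes tested. Ndufs3, Ndufa7 and Ndufb10 are named because of their unadjusted p, after their values were seen.

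Accessory subunits of complex I lay on both sides of 0. Ndufa2, of the NADH-oxidizing module, had 28.9, 37.8, 31.8 and 32.5 CPM in HSD livers and 46.3, 37.7, 42.4, 33.0 and 42.3 CPM in Chow livers (log2 fold change -0.30, adjusted p = 0.13). HSD replicate 2 lay among the Chow livers, and so did Chow replicate 4 among the HSD livers. Ndufa7 (log2 fold change -0.26, adjusted p = 0.14) and Ndufb10, of the membrane arm (-0.25, adjusted p = 0.13), had values of similar size, and Ndufa7 passed the test once HSD replicate 2 was left out (-0.36, adjusted p = 0.0498). At the other end, Ndufb8, a membrane-arm subunit, had 86.1, 92.2, 93.0 and 86.0 CPM in HSD livers and 67.5, 89.0, 71.4, 73.3 and 92.8 CPM in Chow livers (0.18, adjusted p = 0.33). Ndufs5, on the intermembrane face, gave 0.17 (adjusted p = 0.36). In both genes Chow livers spread over most of the combined range, and HSD livers sat in its upper part.

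Complex II is the only complex with all its subunits encoded in the nucleus, and its 4 genes lay on both sides of 0. The catalytic dimer consists of Sdha and the iron-sulfur protein Sdhb, and Sdhc and Sdhd anchor it in the membrane. Sdhb had 121, 146, 139 and 142 CPM in HSD livers and 132, 190, 142, 169 and 180 CPM in Chow livers, with a log2 fold change of -0.25 (SE 0.12, adjusted p = 0.23). Sdhd had 170.6, 180.1, 174.2 and 177.6 CPM in HSD livers and 124.2, 170.7, 137.7, 152.5 and 159.2 CPM in Chow livers, with 0.24 (SE 0.10, adjusted p = 0.17). Chow replicate 1 was the lowest Chow liver for both genes, and HSD replicate 1 the lowest HSD liver for both. Sdha (0.11, adjusted p = 0.61) and Sdhc (-0.02, adjusted p = 0.92) lay between them. None of the 4 passed the test, and Sdhd alone had an unadjusted p under 0.05.

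The opposite signs were clearest as a ratio within each liver, where the spread shared by both genes cancels. Sdhd over Sdhb in TPM was 1.28, 1.12, 1.14 and 1.14 in HSD livers, against 0.859, 0.819, 0.885, 0.821 and 0.805 in Chow livers. Every HSD liver had more Sdhd than Sdhb and every Chow liver had less. The means were 1.17 ± 0.0732 in HSD livers and 0.838 ± 0.0331 in Chow livers (SD, n = 4 HSD and n = 5 Chow). This pair was chosen after its values were seen, so the ratio is given as a description without a test. Sdha over Sdhb was also apart, at 1.14 to 1.39 in HSD livers and 0.917 to 1.063 in Chow livers. Neither Sdhb nor Sdhd shares 31-base sequences with another annotated gene.

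**Figure D3:**
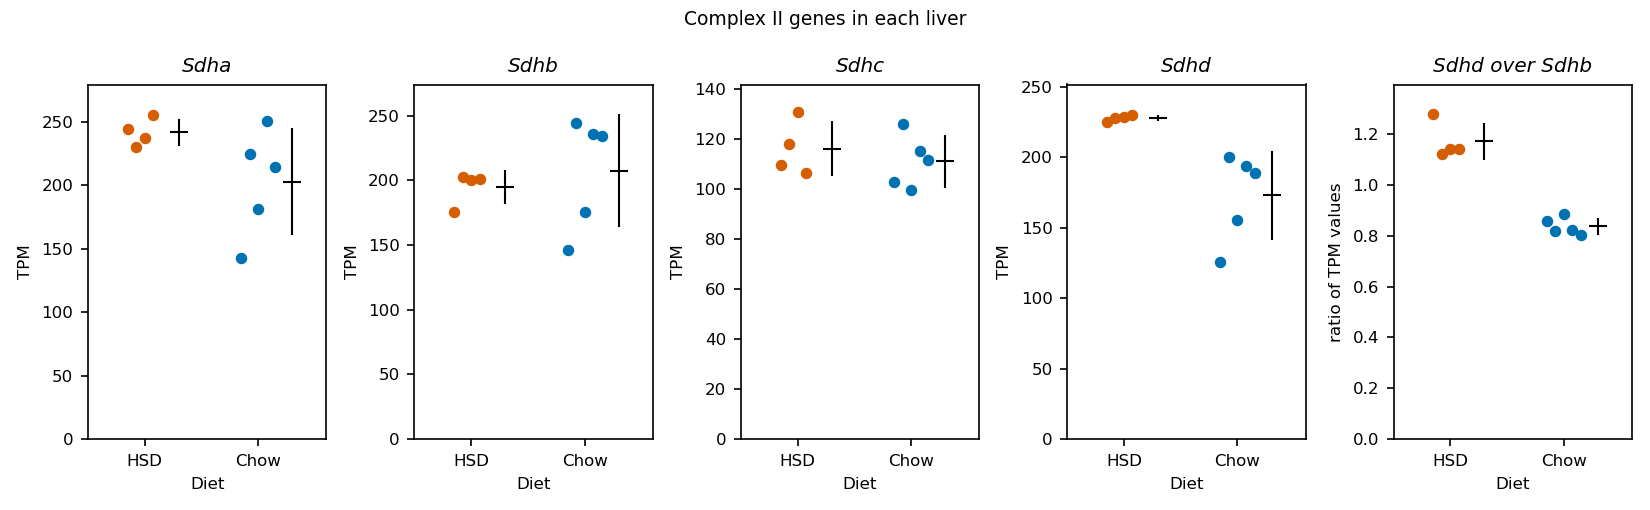
TPM of Sdha, Sdhb, Sdhc and Sdhd and the ratio of Sdhd to Sdhb in each of 4 HSD (orange) and 5 Chow (blue) livers, with the mean and SD beside the points and y axes starting at 0. The ratio separates the diets (1.12 to 1.28 in HSD livers, 0.805 to 0.885 in Chow livers), as does Sdhd alone in TPM (224.9 to 229.7 in HSD livers, 125.9 to 199.9 in Chow livers), whereas Sdhb alone does not.

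The same measure was taken for all 2850 pairs of tested members. The ratio of 330 pairs (11.6%) had every HSD liver on one side of every Chow liver, as had 9.79% of the 827 pairs within a complex. In complex II this held for 4 of 6 pairs, in complex I for 59 of 595 pairs (9.92%), in complex III for 3 of 28 pairs and in complex IV for 15 of 78 pairs (19.2%). In complex V it held for 0 of 120 pairs. The 15 pairs of complex IV include Cox7a1 with Cox6b1, Cox4i1, Cox5b, Cox7c, Cox7a2, Cox6c and Cox7b. Cox7a1 rests on 6 to 24 estimated counts per liver. Cox6b1 with Ndufa4 and with Cox7a2l were also among the 15. Pairs share genes and livers and are not independent, so no test was made.

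The promoters of Sdhd, Sdhb, Ndufs3 and Atp5k are shown for the sites of factors known to act on OXPHOS genes. Sdhd and Sdhb had values that leaned in opposite directions. Ndufs3 and Atp5k lay fully below the Chow livers in CPM, but overlapped them in TPM. Sequences are from RefSeq on GRCm38.p6 and run from 150 bases before the annotated start to 20 bases into the transcript, with capitals for matches to the ETS core CCGGAAG (bound by NRF2, also called GABP) and the NRF1 palindrome GCGCATGCGC, searched on both strands.
Sdhd, chr9:50603830-50603999, minus strand: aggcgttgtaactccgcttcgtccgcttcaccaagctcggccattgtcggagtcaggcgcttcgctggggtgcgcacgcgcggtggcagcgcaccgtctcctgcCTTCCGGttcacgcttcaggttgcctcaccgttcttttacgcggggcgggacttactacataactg
Sdhb, chr4:140961121-140961290, plus strand: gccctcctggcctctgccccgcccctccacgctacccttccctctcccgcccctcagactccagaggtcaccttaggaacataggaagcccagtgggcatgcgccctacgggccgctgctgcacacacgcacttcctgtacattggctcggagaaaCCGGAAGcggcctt
Ndufs3, chr2:90904702-90904871, minus strand: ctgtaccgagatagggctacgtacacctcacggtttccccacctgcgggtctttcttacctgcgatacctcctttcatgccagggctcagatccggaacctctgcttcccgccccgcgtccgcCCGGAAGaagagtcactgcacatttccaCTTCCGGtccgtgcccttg
Atp5k, chr5:108434380-108434549, minus strand: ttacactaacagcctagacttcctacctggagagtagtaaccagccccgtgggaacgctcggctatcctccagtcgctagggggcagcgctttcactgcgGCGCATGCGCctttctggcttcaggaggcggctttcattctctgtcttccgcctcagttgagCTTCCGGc
Both complex II promoters hold an ETS core, 46 bases before the start in Sdhd and 6 bases after it in Sdhb. Ndufs3 holds a pair of ETS cores on opposite strands, and Atp5k holds the NRF1 palindrome 50 bases before the start and an ETS core 12 bases after it. Over windows that run 250 bases before to 50 bases after each start, RefSeq promoters were matched for 66 of the 81 members. The ETS core was present in 16 of their 71 promoters (22.5%) and in 8.86% of all 32851 mouse promoters. NRF1 GCGCATGCGC was present in 5 (7.04%, against 0.971%), YY1 AAGATGGCG in 7 (9.86%, against 1.40%) and the estrogen-related receptor motif TNAAGGTCA in 3 (4.23%, against 1.28%). Sdhd holds an estrogen-related receptor match 36 bases after the start, beyond the printed stretch, and Sdhb holds none. The Sdha promoter held none of these motifs. Ndufs8, which also lay fully below the Chow livers in CPM, holds an ETS core and is not shown. A match describes the letters and is not evidence of binding, and members with and without a match were not compared.

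In complex III, 0 of 8 genes were called (1 had an unadjusted p under 0.05) and the median log2 fold change was 0.01, with 4 values on each side of 0. Uqcrc1 was the lowest, with 115, 115, 110.0 and 123 CPM in HSD livers and 123, 146, 121, 137 and 142 CPM in Chow livers (log2 fold change -0.21, SE 0.09, adjusted p = 0.17). HSD replicate 4 reached the 2 lowest Chow livers, and the other 3 HSD livers lay below all of them. Uqcrfs1, the Rieske iron-sulfur protein that passes electrons to cytochrome c1, was the highest at 0.09 (adjusted p = 0.68). Uqcr10 (0.06) and Uqcr11 (-0.07), both small accessory subunits, had adjusted p values of 0.74 and 0.77. Cyc1, which encodes cytochrome c1 and lies outside the symbol rule, had a log2 fold change of -0.14 (adjusted p = 0.41).

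In complex IV, 0 of the 13 genes tested were called (0 at an unadjusted p under 0.05) and the median was 0.01. Of the ubiquitous forms, Cox4i1 was at -0.10, Cox6a1 at -0.08, Cox7a2 at -0.13, Cox7b at 0.04 and Cox8a at 0.08, with 0.39 as the lowest adjusted p of these 5. Cox6b1, the ubiquitous form at the contact between complex IV monomers, was the lowest (-0.17, adjusted p = 0.27), followed by the zinc-binding Cox5b (-0.13, adjusted p = 0.47). Ndufa4 was at 0.01 (adjusted p = 0.95), and Cox7c at 0.04 (adjusted p = 0.81). Cox7a2l was at 0.10 (adjusted p = 0.55).

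Cox7a1 was the single member for which a difference of more than 2-fold lay within the 95% interval. Its estimated counts were 16, 22, 12 and 24 in HSD livers and 8, 14, 12, 10 and 6 in Chow livers, all of them even. It did not reach the count filter with halved counts, where 75 members were tested. In CPM it had 0.755, 1.08, 0.819 and 0.952 in HSD livers and 0.517, 0.817, 0.577, 0.375 and 0.468 in Chow livers, so that HSD replicate 1 overlapped Chow replicate 2 (log2 fold change 0.72, interval -0.01 to 1.45, adjusted p = 0.22). On the TPM scale the diets did not overlap, and limma on log2(TPM + 1) called it (0.82 on that scale, adjusted p = 0.022), as it did on log2(TPM + 0.1) (0.97, adjusted p = 0.023). Cox7a1 made up 2.52% to 3.55% of the Cox7a1 and Cox7a2 TPM in HSD livers and 1.24% to 2.26% in Chow livers. The list of 9 muscle and brown fat markers, tissues in which Cox7a1 is the main form, summed to 0.778 to 1.21 TPM in HSD livers and 0.472 to 1.496 TPM in Chow livers, and 2 of the 9 were at 0 in all livers.

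In complex V, 0 of 16 genes were called (1 had an unadjusted p under 0.05) and 15 of the 16 log2 fold changes were negative (median -0.07). The parts of the enzyme had similar values: the F1 head and central stalk had a median of -0.03, the c ring -0.09, the peripheral stalk -0.08 and the remaining membrane subunits -0.08. Atp5b (-0.03, adjusted p = 0.91), Atp5a1, the alpha subunit (0.02, adjusted p = 0.94), and Atp5c1, the central stalk (-0.02, adjusted p = 0.92), were at the upper end. Atp5k, the e subunit that helps ATP synthase form dimers, had 32.9, 37.9, 38.4 and 38.0 CPM in HSD livers and 43.3, 49.6, 39.5, 39.7 and 40.2 CPM in Chow livers. The diets did not overlap in CPM, the gap being small against the spread within each diet. The log2 fold change was -0.21 (SE 0.09, adjusted p = 0.20). In TPM the diets overlapped for Atp5k (314 to 351 in HSD livers, 303 to 408 in Chow livers).

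The c subunit, which forms the rotating ring, is encoded by 3 genes with the same mature protein. Atp5g3 supplied 55.7% ± 1.17 of their summed TPM in HSD livers and 55.01% ± 4.13 in Chow livers, and Atp5g1 supplied 42.7% ± 1.24 and 42.9% ± 4.21 in HSD and Chow livers (SD, n = 4 HSD and n = 5 Chow). Atp5g2 supplied 1.66% ± 0.205 in HSD livers and 2.10% ± 0.614 in Chow livers. Its CPM values were 6.22, 8.99, 7.30 and 7.30 in HSD livers and 8.47, 11.6, 5.53, 13.7 and 10.6 in Chow livers. Chow replicate 3 was below every HSD liver, and the log2 fold change of -0.43 (SE 0.22) had an adjusted p of 0.28. Of the 31-base sequences of Atp5g2, 40.2% occur in other annotated genes, mostly in Gm10175, and only Atp5o, of the peripheral stalk, had a higher share (49.3%, median of the members 4.98%).

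The sign of the shift over all subunits depended on the scale. In TMM-scaled CPM 22 of 76 log2 fold changes were positive, whereas limma on log2(TPM + 1) gave 61 of 76 positive, with a median of 0.13. All genes shifted likewise on that scale (median 0.14), so that relative to all genes the members stood at -0.01 in TPM and at -0.05 in CPM. On TPM, 9 members had every HSD liver above every Chow liver (Cox6c, Cox7a1, Cox8a, Ndufa1, Ndufa12, Ndufa4, Ndufa6, Sdhd and Uqcr10) and 0 had every HSD liver below, and 12.2% of all genes tested were apart on TPM, 1282 higher and 193 lower. Cox6c, Ndufa1 and Ndufa12 are named for this pattern after their values were seen. Scaling by library totals placed the members at 0.02 and all genes at 0.07. The subunit transcripts are short: the median member was at the 2.44 percentile of effective length among genes tested, and 58 of 76 were in the shortest 10%. Genes of the shortest 10% had a median log2 fold change of -0.10 in CPM, below that of the members. With an offset for transcript length fitted within each library, the members had a median of 0.04 (all genes -0.005), 48 of 76 values were positive and 0 were called.

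**Figure D4:**
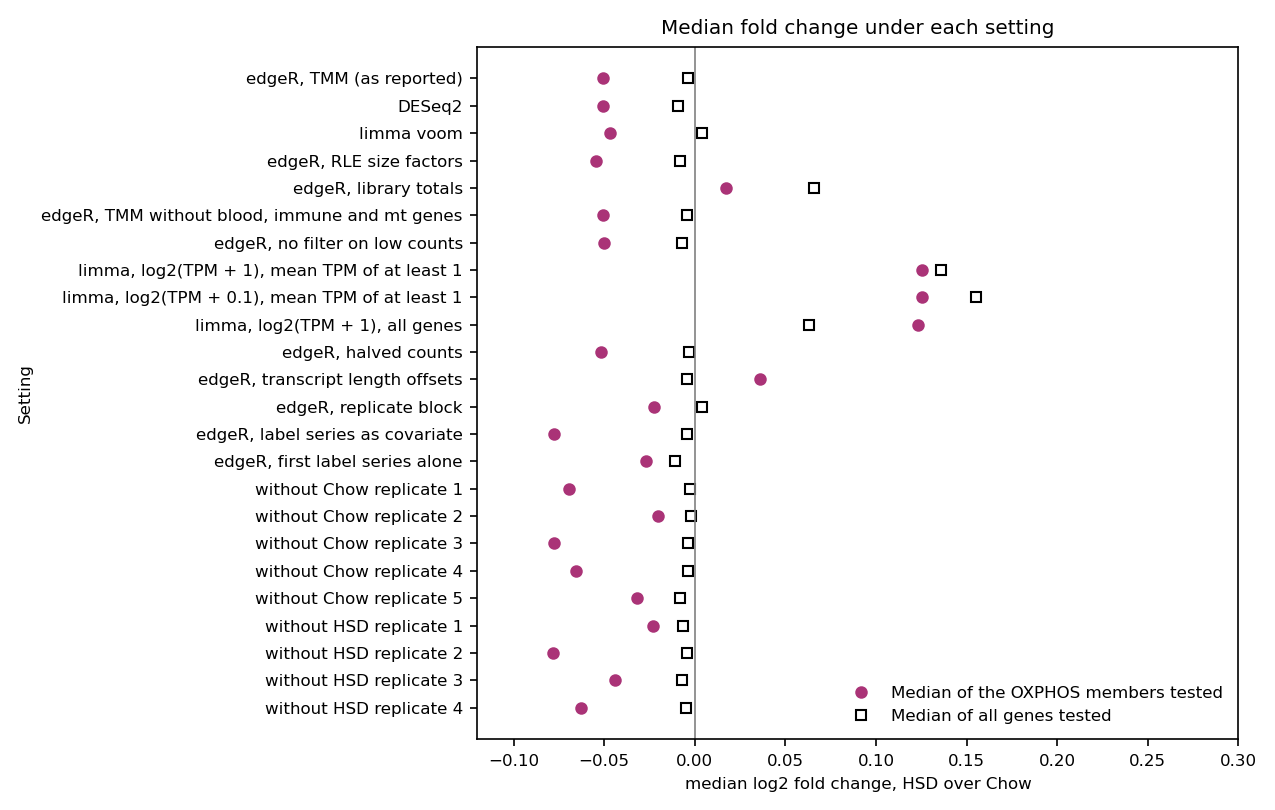
Median log2 fold change (HSD over Chow, x axis) of the OXPHOS members tested (filled circles) and of all genes tested (open squares) under each setting (y axis). The members lie below all genes in every setting except the length offsets (0.04) and limma on TPM of all genes (0.12), and their median is below 0 in every edgeR setting with TMM factors and no length offset.

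The 13 mtDNA-encoded subunits were tested beside their nuclear partners, and 0 were called (1 had an unadjusted p under 0.05). Of their log2 fold changes, 12 were positive (median 0.08). The highest were mt-Nd5 at 0.25 (adjusted p = 0.20), mt-Nd1 at 0.25 (adjusted p = 0.26), mt-Nd6 at 0.23 (SE 0.44, adjusted p = 0.80) and mt-Nd4l at 0.21 (adjusted p = 0.27), all subunits of complex I. The level of mt-Nd6 was 9.68 to 74.6 TPM, and its fold change ran between -0.68 and 0.61 over the alternatives. Cytochrome b (mt-Cytb) was at 0.11, mt-Co3 at 0.10, mt-Atp8 at 0.08, mt-Atp6 at 0.06, mt-Co1 at 0.05, mt-Nd4 at 0.05, mt-Co2 at 0.03, mt-Nd2 at 0.02 and mt-Nd3 at -0.04. The median over the 13 was above 0 and that over the nuclear members below 0, and the difference between the lists was not tested. In TPM, the mtDNA-encoded sum exceeded the nuclear sum 6.04, 5.29, 5.11 and 5.41 times in HSD livers and 4.75, 5.26, 4.87, 5.58 and 4.39 times in Chow livers. The ranges overlapped, with Chow replicate 4 above all HSD livers but replicate 1. The libraries were poly-A selected. How completely this captured each mtDNA-encoded RNA was not tested, so these ratios are not ratios of molecules.

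A few genes on other lists of mitochondrial energy metabolism passed the test. The share called was 7.14% on the list of the tricarboxylic acid cycle and 5.88% on that of regulators of mitochondrial gene expression. Both are close to the 6.67% called over all genes. Cs, citrate synthase, the entry enzyme of the tricarboxylic acid cycle, had 96.2, 89.5, 110.0 and 106 TPM in HSD livers and 40.8, 55.7, 50.4, 61.6 and 56.4 TPM in Chow livers. It rose on HSD with no overlap (log2 fold change 0.77, SE 0.09, adjusted p = 0.001), as the only called gene of the 14 on the cycle's list, which has a median of -0.05. Ppargc1a, the coactivator PGC-1alpha that is known to raise transcription of OXPHOS genes, had 3.98, 3.00, 3.49 and 4.44 TPM in HSD livers and 1.12, 1.72, 1.66, 2.15 and 2.23 TPM in Chow livers. It too rose without overlap (0.93, SE 0.17, adjusted p = 0.0095), alone among the 17 listed regulators of mitochondrial gene expression (median 0.03). Both genes kept their call when any 1 liver was left out.

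**Figure D5:**
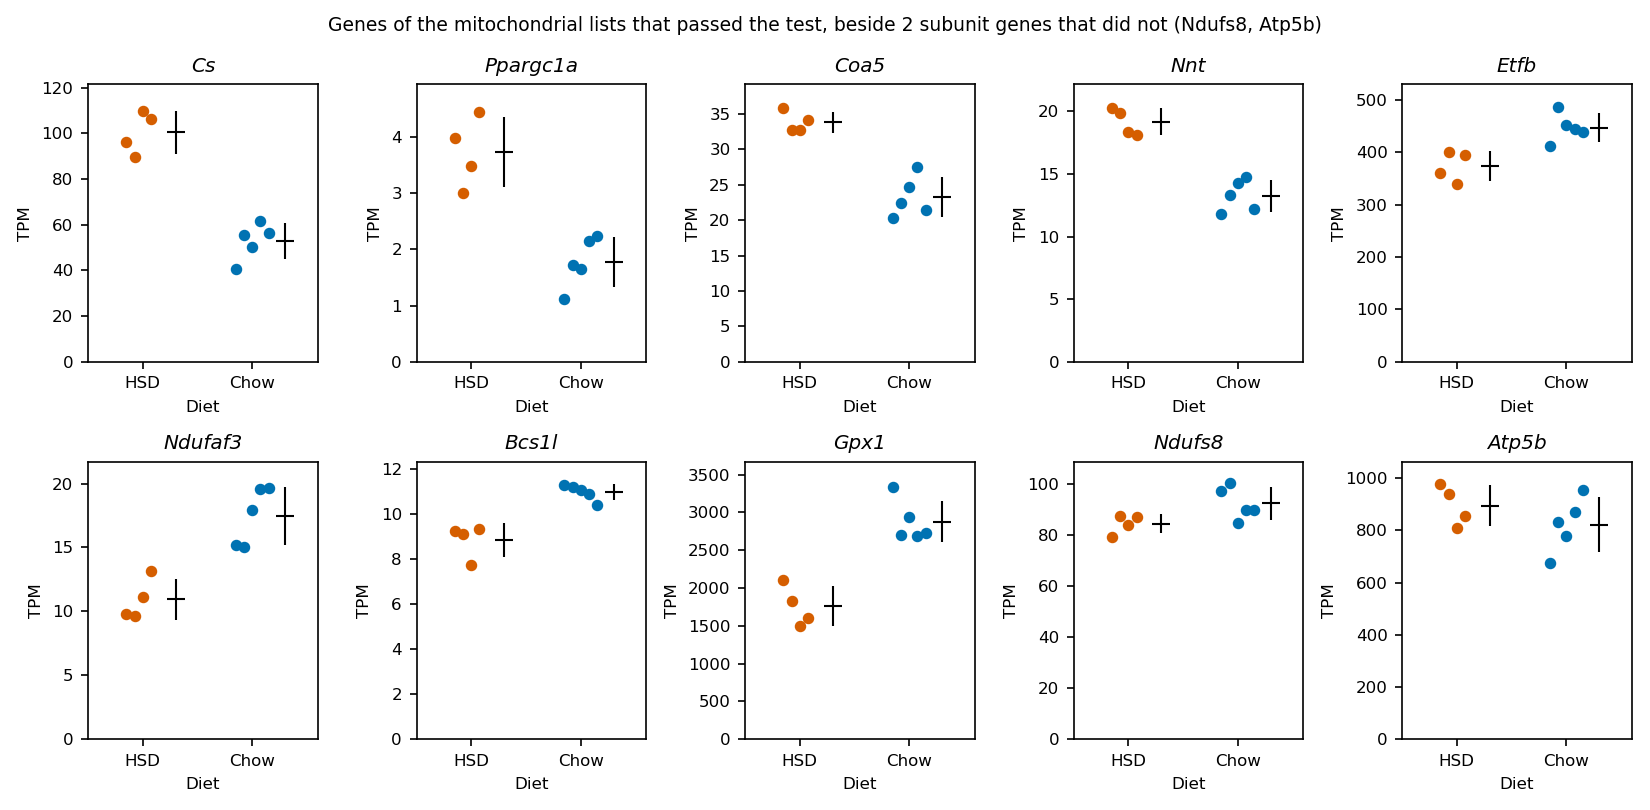
TPM (y axes start at 0) in each of 4 HSD (orange) and 5 Chow (blue) livers, with mean and SD. Shown are a selection of called genes from the mitochondrial lists, and Ndufs8 and Atp5b, which were not called. Cs, Ppargc1a, Coa5 and Nnt are higher on HSD and Etfb, Ndufaf3, Bcs1l and Gpx1 lower, with no overlap between diets. Ndufs8 and Atp5b overlap in TPM, as do the called genes Ndufaf7 and Prdx5, which are not shown.

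Of the assembly factors, which build the complexes but are not part of them, 1 of 54 tested rose and 3 fell, a share close to the 6.67% called over all genes. Coa5, needed for complex IV, rose (log2 fold change 0.38, adjusted p = 0.019). Ndufaf3 (-0.52, adjusted p = 0.038) and Ndufaf7 (-0.39, adjusted p = 0.040), both of complex I, fell, as did Bcs1l (-0.47, adjusted p = 0.038), which inserts the Rieske protein into complex III. The medians were -0.19 over 16 factors of complex I, 0.04 over 4 of complex II, -0.14 over 6 of complex III, -0.10 over 23 of complex IV and 0.07 over 5 of complex V. These calls were close to the threshold: Ndufaf3 lost its call without each liver but Chow replicate 2 and Ndufaf7 without each liver but Chow replicate 1 (highest adjusted p 0.12 and 0.13). Bcs1l lost it without Chow replicate 3 or 5 or any HSD liver (highest 0.098), and Coa5 without HSD replicate 1 (0.071) or 4 (0.066). In TPM the diets overlapped for Ndufaf7 (8.02 to 12.2 in HSD livers, 8.62 to 12.1 in Chow livers), and limma on log2(TPM + 1) gave -0.09 (adjusted p = 0.70). Bcs1l was not called on that scale either (-0.28, adjusted p = 0.099), whereas Coa5 and Ndufaf3 were.

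Among electron carriers and subunits outside the symbol rule, Etfb, the beta subunit of the flavoprotein that delivers electrons of fatty acid oxidation, fell (360, 401, 340 and 395 TPM in HSD livers, 412, 487, 451, 444 and 439 TPM in Chow livers, log2 fold change -0.44, adjusted p = 0.018), and 0 of the other 9 tested were called. Its call was lost without HSD replicate 1 (adjusted p = 0.072), 3 (0.060) or 4 (0.051). Of 11 uncoupling and antioxidant genes, 27.3% were called, beside 6.67% of all genes. Gpx1, glutathione peroxidase, fell (-0.85, adjusted p = 0.0071), Prdx5 fell (-0.32, adjusted p = 0.041) and Nnt rose (0.37, adjusted p = 0.018). Gpx1 kept its call without any 1 liver, Nnt lost it without HSD replicate 1 (0.066), and Prdx5 kept it only without Chow replicate 1 or 4 (highest 0.13). Limma on log2(TPM + 1) called Gpx1 and Nnt but not Etfb (-0.26, adjusted p = 0.10) or Prdx5 (-0.11, adjusted p = 0.41). Mrpl24 was the single gene of 78 mitochondrial ribosomal proteins to fall (-0.38, adjusted p = 0.020, and 0.072 or 0.060 without HSD replicate 1 or 4, and -0.24 with 0.12 from limma on log2(TPM + 1)), and the list's median was -0.11. None of 15 genes of mitochondrial fatty acid oxidation (median -0.10) and none of 77 cytosolic ribosomal proteins (median -0.06) was called, with 0 and 4 at an unadjusted p under 0.05.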

How the data were processed

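Liver RNA of 4 HSD and 5 Chow C57BL/6J mice was analysed, with groups taken from the sample labels. The label series divides the livers by the numbering of their library names. Series 1 holds Chow replicates 1 to 4 and HSD replicates 1 and 2, and series 2 holds Chow replicate 5 and HSD replicates 3 and 4. Series and diet are thus partly confounded, and what the series stand for is not stated. The authors made poly-A libraries, read pairs of 51 bases and quantified them with kallisto (version not stated) on GRCm38. They deposited estimated counts for each gene symbol, unscaled, and TPM values, corrected for length and library size, which summed to 923061 to 945110 per liver over the symbols used. Kallisto divides reads shared by several transcripts, so genes with near-identical copies, mostly pseudogenes here, are uncertain. How transcripts were summed to symbols was not stated, and 99.1% of the whole values in the count table were even, so halved counts were also tested.

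Estimated counts were rounded, filtered with filterByExpr (minimum count 10, total 15), scaled by TMM and tested with the edgeR 4.0.16 quasi-likelihood test in R 4.3.3. All p-values in the text are from this fit unless another tool is named, with Benjamini-Hochberg adjustment over 12091 genes and a threshold of 0.05. The 95% intervals used the fold change and its SE from the F statistic, with a median of 12.1 degrees of freedom. CPM are TMM-scaled, with a prior count of 2 for log2 CPM. The depth of 12769668 to 25913869 counts per liver left 5 members under the filter. Scripts were tested on simulated data.

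The members and the gene lists were chosen with earlier results of these data known, and lists were described by counts and medians without a test. Named genes were the called members, the 2 largest and 2 smallest fold changes and the highest and lowest TPM per complex, the isoform pairs, the untested members, up to 4 called genes per list and all mtDNA-encoded subunits, with exceptions marked as such. Shared 31-base sequences were counted over GENCODE vM21 transcripts. The alternatives were DESeq2 1.42.0, limma 3.58.1 (voom, and log2(TPM + 1) or log2(TPM + 0.1) at a mean TPM of at least 1, or on all genes), other size factors, library totals, TMM factors without blood, immune and mtDNA genes, no count filter, halved counts, length offsets, a replicate block, leaving out each liver, the label series as a covariate, the first label series by itself, and a threshold of 0.01.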

Additional observations from a re-analysis of the deposited data

Results flagged for a closer look

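A single liver stood apart within its diet in 4 of 164 checked groups (2.44%), where chance gives about 1 in 20. Each value is log2 CPM minus the mean of the other livers of the diet. Atp5k, the e subunit of ATP synthase, was low in HSD replicate 1 (-0.21), the liver that lies furthest below the Chow livers in that gene. Atp5l, the g subunit of the same membrane region, was low in HSD replicate 1 as well (-0.24). Ndufa4 of complex IV was high in HSD replicate 2 (0.17), and Uqcrq of complex III was low in Chow replicate 4 (-0.38).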

How the results depend on the processing

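The count of members called was 0 in either direction under every alternative except those named here. Limma called 1 member higher on log2(TPM + 1) and on log2(TPM + 0.1) at a mean TPM of at least 1 (Cox7a1) and 1 on log2(TPM + 1) of all genes (Ndufa1, adjusted p = 0.049). With each liver left out in turn, 0 members were called higher and 0 to 1 lower, the 1 being Ndufa7 without HSD replicate 2. The median log2 fold change of the members, -0.05, ran between -0.08 and -0.02 with each liver left out. It was 0.1253 with limma on log2(TPM + 1), 0.1255 on log2(TPM + 0.1), 0.12 on log2(TPM + 1) of all genes and 0.036 with length offsets. The share of calls over all genes that were higher was 51.5% with TMM, 69.1% with library totals and 82.5% on log2(TPM + 1). Over all genes, edgeR called 416 higher and 391 lower. With the label series as a covariate it called 290 and 262, and the members had 0 calls and a median of -0.08. In the first label series alone (2 HSD and 4 Chow livers) edgeR called 15 and 19. There Cs (adjusted p = 0.084), Ppargc1a (0.19) and Gpx1 (0.20) were not called. DESeq2 called 632 higher and 663 lower, and the 0.01 threshold left 97 and 112.

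Replicate numbers gave no sign of pairing the samples. Same-numbered livers of the diets had correlations of 0.05, 0.07, -0.06 and 0.04 in their deviations, within the -0.12 to 0.16 of differently numbered livers. These correlations cannot exclude a pairing. With the replicate number as a block, 0 members were called, their median was -0.02, and 220 genes were higher and 205 lower over all genes.

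Counting each gene named in the text under each alternative once, calls were lost 93 times and gained 4 times, and 0 called values reversed. Counts and medians of the comparison lists and of all genes, and uncalled fold changes that crossed 0, moved 188 times by over 1.5 times, the spread between livers or 1 SE. At this depth, Cox7a1 and the 5 untested isoforms rest on a few reads per liver. Why values differed between scales was not tested.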
